A study of Arabidopsis thaliana with 2 samples.

Results

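The small RNA biogenesis and silencing core was followed as 10 named genes of Arabidopsis thaliana: the Dicer-like genes DCL1 (AT1G01040), DCL2 (AT3G03300), DCL3 (AT3G43920) and DCL4 (AT5G20320), the ARGONAUTE genes AGO1 (AT1G48410) and AGO4 (AT2G27040), and HEN1 (AT4G20910), SE (AT2G27100), HYL1 (AT1G09700) and RDR6 (AT3G49500). They were picked by locus, with earlier results of these data known. All 10 had signal on both arrays, as did 19726 of all 25451 loci with a probe. Each rests on 1 probe printed once.

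The samples were suspension cells of line T87, a green cell culture, harvested 8 days and 1 day after inoculation of fresh medium, with no treatment or mutation named for either group. Each day is 1 culture and 1 array with 2 channels. RNA from the dense end of a sucrose gradient (fractions 1 to 3, which hold polysomes) was compared with RNA from all 8 fractions. The polysome ratio of a gene, as read here, is the share of its mRNA in the polysomal fractions, in percent. A line kept in culture stands for no single plant tissue. The ratios hold no expression level, so the cell line was not checked against marker genes.

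The labels leave part of this reading open. The Cy5 channel is listed there as total RNA and yet described as polysomal, the source of the Cy3 channel is given as fractions 1 to 3, and the spike-in step speaks of a nonpolysomal pool in place of total RNA. Polysomal RNA was taken as the numerator because a part cannot exceed the whole: 37 genes (0.188%) exceeded 100% on day 8 and 75 genes (0.380%) on day 1. Under a nonpolysomal denominator the order of genes within a day is the same and each percent is relative to mRNA outside polysomes.

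Small RNAs of plants are cut from double-stranded RNA by Dicer-like enzymes, methylated at their 3′ ends and loaded into ARGONAUTE proteins, which they guide to matching RNA or DNA. MicroRNAs come from hairpin transcripts cut by DCL1 with its partners HYL1 and SE, and act mostly through AGO1. Other classes need an RNA-dependent RNA polymerase such as RDR6 to make the second strand, and are cut by DCL2, DCL3 or DCL4. The pathway also acts on itself: the mRNA of DCL1 is a target of the microRNA miR162, and that of AGO1 is a target of miR168.

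With 1 array for each day there is no spread between cultures and no p-value is given. Since whole cultures were extracted, a change in all cells and a change in some of them cannot be told apart. The error that could be measured lies within an array. Among 546 genes with several probes, probes of the same gene differed by a median SD of 0.33 (day 8), 0.14 (day 1) and 0.29 (the change) on the log2 scale. Repeated spots of one probe differed far less, with a median SD of 0.043 for the change over 23 probes. Differences below the SD between probes are called indistinct here. That SD is a median over genes, so a difference above it is not thereby shown to be distinct.

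The median gene had a ratio of 24.3% on day 8, against 36.0% on day 1, which is -0.52 on the log2 scale, and 81.4% of all genes had lower day 8 values. The quartiles of all genes were 16.8% and 33.4% on day 8, against 32.0% and 39.8% on day 1. The position of 0 is uncertain, because 10 spike-in probes had a median change of -0.29, with a range from -0.55 to 0.61. Features taken as without signal were also lower on day 8, at about 25.1%, against 53.8% on day 1. Changes are therefore given as deposited and relative to the median gene.

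On day 8 the polysome ratios of the silencing core, apart from DCL1, lay above that of the median gene, but only 5 of 10 lay above the median of genes of their own length. DCL4, DCL2 and RDR6 were above the median gene by less than the SD between probes. The median of the 10 genes was 32.1% on day 8, against 34.7% on day 1. Above the median gene of the day lay 9 of 10 on day 8, where 49.9% of all genes did, and 4 of 10 on day 1, where 49.8% did. As deposited, 3 were higher on day 8 (AGO1, AGO4 and SE), where 18.5% of all genes were, and 7 were lower. Only DCL1 was past 2-fold on the lower side, a size reached by 25.6% of all genes, and none reached 2-fold on the higher side, as 1.21% of all genes did. In their change relative to that of the median gene, 9 of 10 lay above, where 49.9% of all genes did, and 1 below, where 50.0% did, with a median of 0.33 on the log2 scale. None was 2-fold apart from the median gene in its change, where 4.43% of all genes were on the higher side and 10.8% on the lower side. The 10 ratios spanned 1.63 on the log2 scale on day 8 and 0.45 on day 1. The arrays as a whole also widened, since the interquartile range of all genes was 0.99 on day 8 and 0.32 on day 1.

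**Figure D1:**
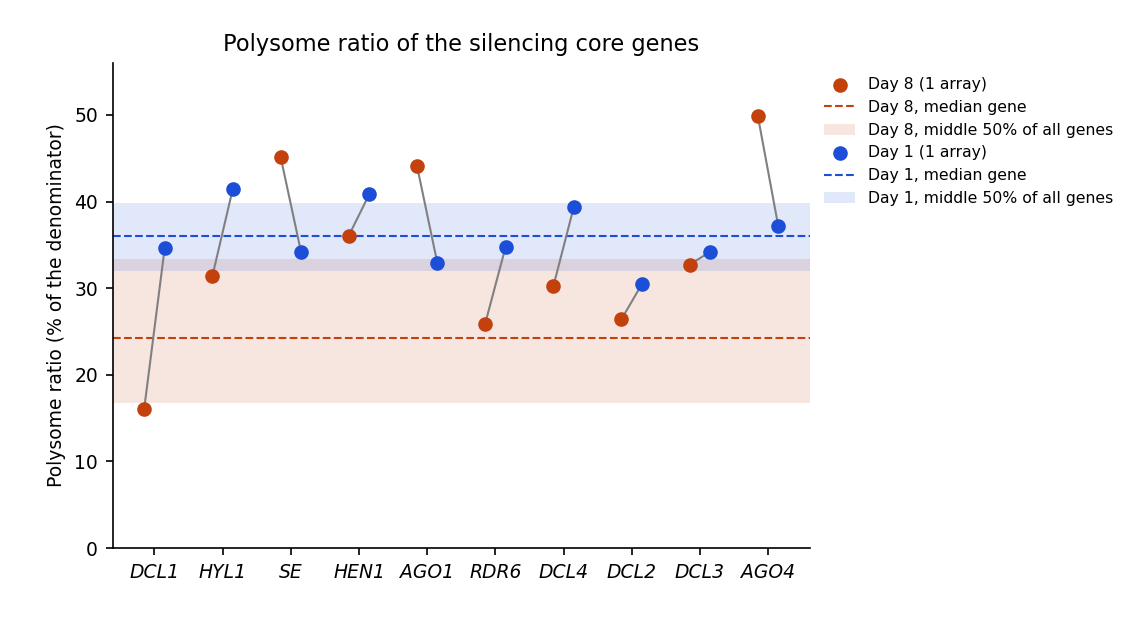
Polysome ratio in percent of the denominator for each of the 10 silencing core genes, with day 8 in orange on the left and day 1 in blue on the right of each pair (1 array each, no error bars). Dashed lines are the median gene and bands the middle 50% of all genes on each day; DCL1 has the lowest day 8 point at 16.1%, and AGO4, SE and AGO1 the highest at 49.9%, 45.2% and 44.2%.

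The 3 genes of the nuclear microRNA processing complex lay apart on day 8. DCL1, the enzyme that cuts microRNA precursors, had a polysome ratio of 16.1% on day 8, against 34.6% on day 1, a change of -1.10 as deposited and -0.58 relative to the median gene (log2). HYL1, its double-stranded RNA-binding partner, had 31.4% on day 8, against 41.5% on day 1, a change of -0.40. SE, the zinc-finger protein SERRATE that assists the cut, had 45.2% on day 8, against 34.2% on day 1, a change of 0.40. On day 8 the 3 partners lay in the order SE, HYL1 and DCL1, while SE and DCL1 had nearly the same ratio on day 1. DCL1 stood at percentile 23.0 among all genes on day 8, against percentile 39.9 on day 1. SE stood at percentile 92.8 on day 8, against percentile 37.0 on day 1.

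Downstream of the cut, HEN1 and AGO1 both had day 8 ratios above the upper quartile of all genes. HEN1, the methyltransferase that protects the 3′ ends of small RNAs, had 36.1% on day 8, against 40.8% on day 1, a change of -0.18 that is smaller than the SD between probes. Its place among all genes was percentile 80.4 on day 8 and 80.1 on day 1. AGO1, the main ARGONAUTE of microRNAs, had 44.2% on day 8, against 32.9% on day 1, a change of 0.43 as deposited and 0.95 relative to the median gene. AGO1 stood at percentile 92.1 on day 8, against percentile 29.3 on day 1. DCL1 and AGO1, the members of the core named above as microRNA targets, lay at opposite ends of the change. AGO1 shared the upper end with AGO4, which had the same change, and with SE (0.92 relative to the median gene). A part of microRNAs in these changes was not tested. MIR168A and MIR168B, the precursor genes of miR168, had no assigned probe. The precursor gene of miR162 on the array, MIR162A, had 5.33% on day 8 and 7.52% on day 1. Amplification began at an oligo(dT) primer, so this value describes polyadenylated precursor RNA and not the mature microRNA.

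In the small interfering RNA branch, RDR6, DCL4, DCL2 and DCL3 were lower on day 8 as deposited, as were 81.4% of all genes. All 4 lay above the median gene in their change, where 49.9% of all genes and 78.5% of genes longer than 4000 bases did. RDR6 and DCL4 lay above it by less than the SD between probes. All 4 lay below the median of their length class, RDR6 and DCL3 by less than that SD. RDR6, the polymerase that makes double-stranded RNA for trans-acting small RNAs and transgene silencing, had 25.9% on day 8, against 34.8% on day 1, a change of -0.43. DCL4, which cuts the products of RDR6, had 30.2% on day 8, against 39.4% on day 1, a change of -0.38. DCL2, which acts on viral and transgene RNA and can stand in for DCL4, had 26.4% on day 8, against 30.5% on day 1, a change of -0.21. DCL2 was the lowest member on day 1, at percentile 19.5. The values of change of RDR6 and DCL4 were indistinct from each other, and that of DCL2 was smaller than the SD between probes.

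DCL3 and AGO4 serve the branch that guides DNA methylation, where DCL3 cuts the small RNAs and AGO4 carries them to chromatin. DCL3 had 32.7% on day 8, against 34.2% on day 1, a change of -0.063, the smallest of the core and smaller than the SD between probes. AGO4 had 49.9% on day 8, against 37.2% on day 1, a change of 0.43 that matched that of AGO1. AGO4 had the highest day 8 ratio of the core, at percentile 95.7, against percentile 58.4 on day 1.

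Within the Dicer-like family, DCL1 differed from the other 3 members by more than the spread between probes. On day 8 its ratio of 16.1% lay below 26.4%, 30.2% and 32.7% for DCL2, DCL4 and DCL3. On day 1 the 34.6% of DCL1 lay inside the range of the other 3, between 30.5% for DCL2 and 39.4% for DCL4. The mean change of the other 3 was -0.22 on the log2 scale, and the change of DCL1 less that mean was -0.89. In the order of all 10 genes on day 8 (AGO4, SE, AGO1, HEN1, DCL3, HYL1, DCL4, DCL2, RDR6, DCL1), only the last step, from RDR6 to DCL1, exceeded the SD between probes, with a gap of 0.68. The other 8 gaps between neighbours ranged from 0.030 to 0.29. Over all 45 pairs of members, 30 pairs differed in their change by more than the SD between probes. The same share over pairs of all genes was not computed. The quartiles of the change over all genes, -1.02 and -0.12, are also further apart than that SD.

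**Figure D2:**
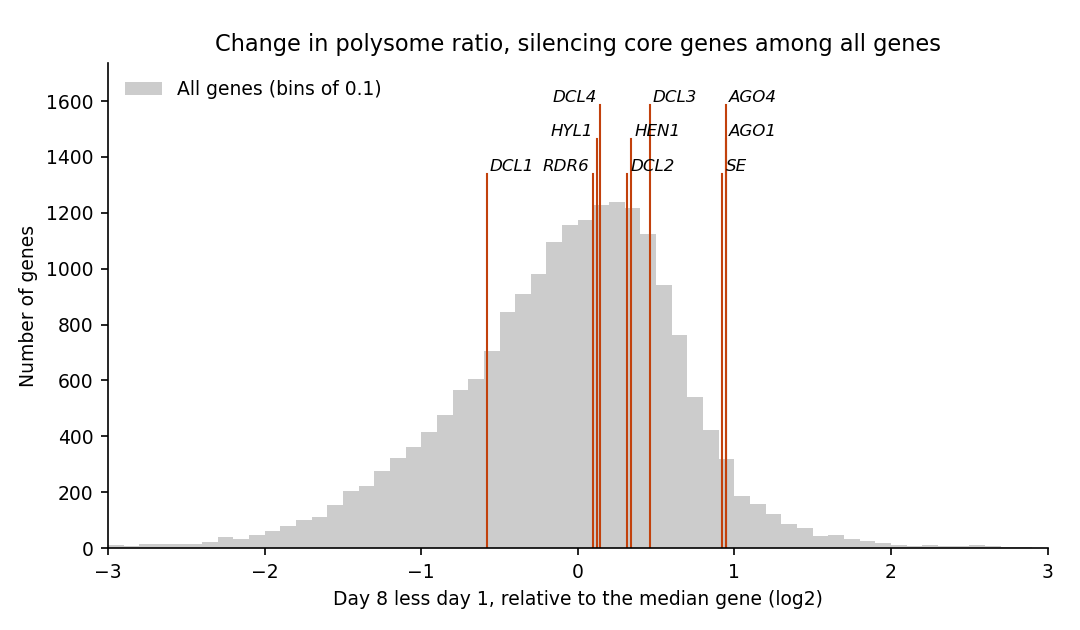
Number of genes (grey bars, bins of 0.1) by day 8 less day 1 change in polysome ratio relative to the median gene on the log2 scale, with the 10 silencing core genes as orange lines; line heights only separate the names, and the 33 genes beyond 3 in either direction are not drawn. DCL1 lies at -0.58, 6 genes lie between 0.096 and 0.46, and SE, AGO1 and AGO4 lie between 0.92 and 0.95.

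On day 8 the ratios of 2 members lay near the value shared by features without signal. Features without signal shared a local value of about 25.1% on day 8 and 53.8% on day 1, so on day 8 a weak feature falls close to the median gene. A gene with signal and a ratio near that of the median gene falls there as well, so nearness alone does not show weak signal. DCL2 and RDR6 lay only 0.016 and 0.017 (log10) above that local value on day 8, where a feature within 0.006 was taken as without signal. On day 1 they lay at -0.251 and -0.178 (log10) from it. The other 8 members lay at least 0.093 (log10) away on day 8. DCL1 lay at -0.194 on day 8 and -0.188 on day 1 (log10). Its deposited change was thus nearly the same as that of features without signal. Weak signal on day 8 was not measured separately, and its part in the values of DCL2 and RDR6 was not tested.

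Gene length moved with the change on these arrays, and the members are long genes. By the gene spans of the RefSeq table (assembly TAIR10.1), available for 19694 of the 19726 genes, the median change was -0.89 for 1635 genes of up to 1000 bases and 0.11 for 461 genes of more than 7000 bases. These classes had median ratios of 17.4% and 39.3% on day 8, against 32.9% and 36.3% on day 1. Of the 10 members, 9 are longer than 4000 bases, from 4262 for SE to 10096 for DCL4, and HYL1 is 2705 bases long. Among all 2884 genes longer than 4000 bases, 78.5% lay above the median gene. Of the 9 longer members, all but DCL1 lay above the median gene, and their count is read against that share. HYL1 also lay above, in the class of 2000 to 3000 bases where 48.8% did. HYL1, RDR6 and DCL4 lay above by less than the SD between probes.

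Set against genes of their own length, the members lay on both sides of the median, in about the share of all genes. The change was above the median of the length class for 4 members (AGO1, AGO4, SE and HYL1) and below it for 6, where 50.0% of all genes lie above. With the 500 genes nearest in length in place of the class, the counts were again 4 and 6. SE lay 0.63 above its class on the log2 scale, and AGO1 and AGO4 each lay 0.50 above theirs. AGO1, at 7000 bases, is at the upper edge of its class. Against the 500 genes nearest in length, SE lay 0.66 above, AGO1 0.44 and AGO4 0.48. HYL1 lay 0.14 above and HEN1 0.10 below, both within the SD between probes. By the day 8 ratio itself, 5 members (SE, AGO1, AGO4, HEN1 and HYL1) lay above the median of their class and 5 below, with a median percentile of 44.1 within the class, against 71.7 among all genes. All 4 Dicer-like genes lay below the median of their class, by 0.17 for DCL3, 0.32 for DCL2, 0.49 for DCL4 and 1.21 for DCL1, of which the value for DCL3 is within the SD between probes. Against the 500 genes nearest in length, DCL3 lay at -0.080 and DCL2 at -0.26, both within that SD. The change of DCL1 stood at percentile 1.84 among the 461 genes of its class. RDR6 lay 0.20 below its class, also within the SD between probes. Gene length here includes introns and its part in these changes was not tested further.

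**Figure D3:**
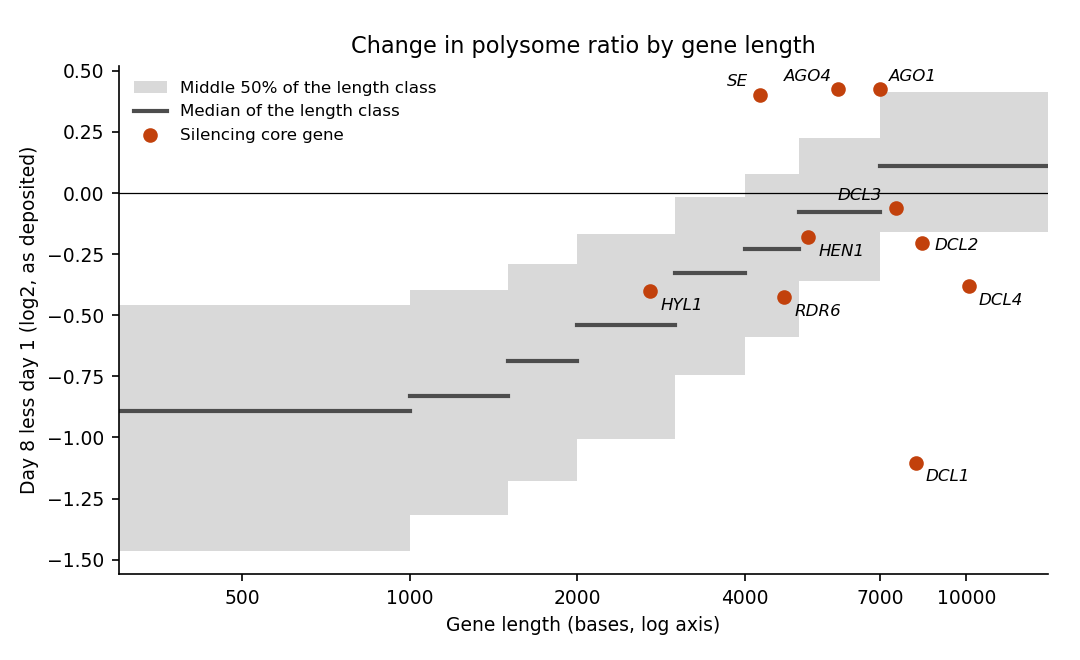
Day 8 less day 1 change in polysome ratio (log2, as deposited) against gene length in bases on a log axis. Black lines are the medians and grey bands the middle 50% of all genes in 8 length classes, and orange points the 10 silencing core genes; AGO1, AGO4 and SE lie above their bands and DCL1, DCL2 and DCL4 below theirs, with DCL1, a gene of 8107 bases, at -1.10 against a class median of 0.11.

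Other genes of small RNA pathways were taken from lists of their roles. Of 50 further genes in 6 lists, 49 had a probe and 46 had signal on both days. Together they had a median ratio of 33.2% on day 8, against 37.3% on day 1. Relative to the median gene, 31 lay above and 14 below, with SDN3 at the same value, and their median was 0.39. Above the median gene lay 49.9% of all genes and 78.5% of genes longer than 4000 bases. Against the median of their length class, 24 lay above and 22 below, where 50.0% of all genes lie above. The counts of each list below are read against the same shares.

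Of the 7 other ARGONAUTE genes with signal, 6 lay above the median gene and 1 below (median 0.42), and 4 lay above their length class. AGO3, a close relative of AGO2, had 41.1% on day 8 and 28.4% on day 1 (relative change 1.06). AGO9, a relative of AGO4 known from ovules, had 50.2% on day 8 and 34.8% on day 1. AGO7, which starts trans-acting small RNA formation, was nearest the median of the list with 35.6% on day 8 and 38.1% on day 1. AGO6, another relative of AGO4, was the lowest with 24.7% on day 8 and 39.8% on day 1 (-0.17), and its day 8 value lay at the edge of the limit for no signal. AGO10, the closest relative of AGO1, had 27.4% on day 8 and 35.7% on day 1. On day 8 AGO10 lay below AGO1 by more than the SD between probes. AGO8 was taken as without signal on day 1 and is not given.

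Among RNA-dependent RNA polymerases and their partners, 6 of 8 lay above the median gene (median 0.63) and 6 above their length class. RDR2, which makes double-stranded RNA for DCL3, had 47.9% on day 8, against 37.3% on day 1, a deposited change of 0.36, against -0.43 for RDR6. AT2G19930, a polymerase family gene, was highest with 39.4% on day 8 and 22.6% on day 1 (relative change 1.32). The median of the list lay midway between SDE3, an RNA helicase-like protein, with 38.9% on day 8 and 40.7% on day 1, and AT2G19920, of the polymerase family, with 17.3% on day 8 and 14.2% on day 1. SGS3, the partner protein of RDR6, was lowest with 28.0% on day 8 and 44.5% on day 1 (-0.15). RDR6 and SGS3 were both near the median gene in their change, while RDR2 lay at 0.88. Against the median of the length class, RDR6 lay at -0.20, SGS3 at -0.34 and RDR2 at 0.59. On day 8 RDR6 lay 0.017 and SGS3 0.047 (log10) above the local value of features without signal, which was itself close to the median gene.

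Of the double-stranded RNA-binding partners of Dicer-like enzymes, 3 had signal, of which 1 lay above the median gene and 2 below (median -0.36). Against their length class, 1 lay above and 2 below (median -0.19). DRB4, the partner of DCL4, had 20.7% on day 8 and 38.1% on day 1 (relative change -0.36). DRB3 had 13.3% on day 8 and 38.4% on day 1 (-1.01), and DRB2 had 39.5% on day 8 and 38.2% on day 1 (0.57). DRB5 was taken as without signal on day 8 and is not given. The day 1 ratios of DRB2, DRB3 and DRB4 were indistinct.

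Cofactors of microRNA processing were divided evenly, with 5 above the median gene and 5 below (median 0.10), while 4 lay above their length class and 6 below. STA1, a splicing factor that also aids microRNA production, had 53.8% on day 8 and 37.1% on day 1 (relative change 1.06). CPL1, the phosphatase that acts on HYL1, had 49.1% on day 8 and 37.5% on day 1. HST, the microRNA export factor, was not analysed here. The median of the list lay midway between TGH, with 27.7% on day 8 and 34.5% on day 1, and CDC5, with 27.9% on day 8 and 40.1% on day 1. CBP20, the small subunit of the nuclear cap-binding complex, had 19.7% on day 8 and 37.9% on day 1 (-0.42). ABH1, the large subunit of that complex, had 34.2% on day 8 and 33.9% on day 1 (0.53). ABH1 was named after its values were seen, and the genes differ in length (2467 bases for CBP20 and 6183 for ABH1). Against the median of its length class, CBP20 lay at -0.41 and ABH1 at 0.090, the latter within the SD between probes.

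RNA-directed DNA methylation genes lay above the median gene in 8 of 11 cases (median 0.44), and 6 lay above their length class. KTF1, a factor that binds AGO4, had 50.0% on day 8 and 35.7% on day 1 (relative change 1.01). SHH1, which recruits polymerase IV, was nearest the median of the list with 30.5% on day 8 and 32.4% on day 1. DRD1, a chromatin remodeler of this pathway, had 13.1% on day 8 and 35.5% on day 1 (-0.91). DRM2, the methyltransferase at its end, had 13.7% on day 8 and 32.4% on day 1 (-0.72). DRD1 and DRM2, 2 of the 11, were past 2-fold on the lower side as deposited, where 25.6% of all genes were.

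Small RNA turnover genes lay above the median gene in 5 of 7 cases, with 1 below and SDN3 on it (median 0.19). Against their length class, 3 lay above and 4 below (median -0.050). XRN2, a nuclear exonuclease, had 44.5% on day 8 and 40.9% on day 1 (relative change 0.64). FRY1, whose loss inhibits such exonucleases, was nearest the median of the list with 32.5% on day 8 and 41.0% on day 1. SDN2, a small RNA degrading nuclease, was lowest with 19.7% on day 8 and 29.6% on day 1 (-0.066). SDN1 was taken as without signal on day 8 and is not given. Of the 7 with signal, 0 were at least 2-fold lower on day 8, where 25.6% of all genes were, and 0 at least 2-fold higher, where 1.21% were.

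**Figure D4:**
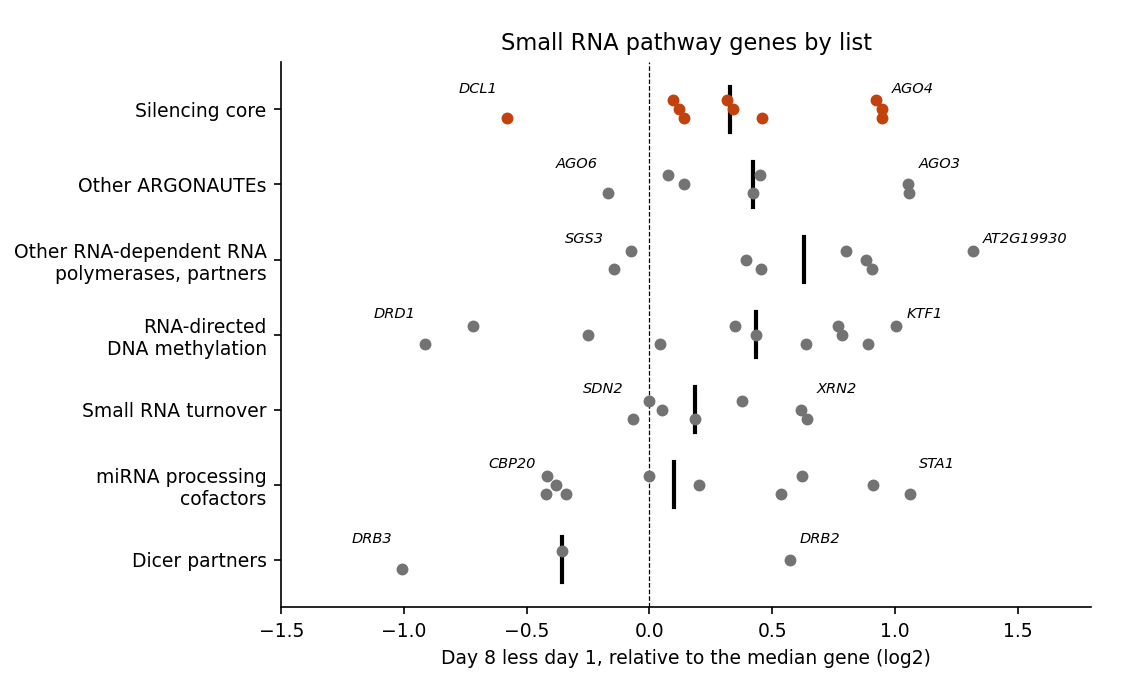
Day 8 less day 1 change in polysome ratio relative to the median gene (log2, dashed line at 0) for each gene of 7 lists, with the silencing core in orange, black bars for the median of each list, and the lowest and highest gene of each list named. List medians run from -0.36 for Dicer partners (3 genes) to 0.63 for the other RNA-dependent RNA polymerases and partners (8 genes), with the core at 0.33.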

How the data were processed

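Each day has 1 array, for which the authors deposited log10 ratios of polysomal to total RNA at 39102 features. The other deposited table held the same numbers (largest difference 0), and the authors' column of day 8 less day 1 differed from the subtraction by at most 0.001. The sources used here do not give the steps from scanner signals to ratios, and 0 columns of per-sample values were left unused. Ratios were turned into log2 or percent. Features within 0.006 of a local value, the median of the 30 nearest features that lay within 0.04 of the negative controls, were taken as without signal (26.6% of gene probe features on day 8, 25.5% on day 1). This rule was tested on simulated data, which held no features with weak signal and so do not cover that case. The rule uses the ratio alone, so a feature with signal whose ratio equals the local value is also left out. Probes were assigned to loci by locus name (25920), unique symbol (245) or as the main gene beside its upstream reading frame (55), with symbols from RefSeq's TAIR10.1 table, and 201 probes naming several loci and 11057 others were not used. Spots and probes were averaged per gene. The members, the lists and the rule for naming their lowest, middle and highest gene were chosen with earlier results of these data known. Further genes named from a list were chosen after their values were seen. No test was run. Python 3.11.15, numpy 2.4.6, pandas 2.3.3 and scipy 1.17.1 were used.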

Additional observations from a re-analysis of the deposited data

How the results depend on the processing

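No paired analysis was possible because each day has 1 array. The 10 members' changes relative to the median gene kept their sign with all features kept, a tolerance for no signal 2 times as wide, the median of protein-coding genes, the median of genes up to 100%, the median over probes, and the other deposited table. With 0 as deposited, DCL2 (-0.21), DCL3 (-0.063), DCL4 (-0.38), HEN1 (-0.18), HYL1 (-0.40) and RDR6 (-0.43) turned negative, the median of members was -0.19, and 3 lay above 0 and 7 below. With 0 at the median spike-in, DCL4 (-0.092), HYL1 (-0.11) and RDR6 (-0.14) turned negative, which put 4 below 0 in place of 1. These shifts follow from the choice of 0 alone. DCL1 was not 2-fold lower with 0 at the median spike-in (count 0) or at the median gene (count 0). Against the length class or the 500 genes nearest in length, chosen after seeing the data, 4 members lay above and 6 below, and the members' median percentile on day 8 was 44.1 within the class, against 71.7 among all genes. Classes by protein length were not run. Leaving out each member in turn gave medians from 0.32 to 0.34. With a nonpolysomal denominator the members' median share of polysomal mRNA would be 24.3% on day 8 and 25.7% on day 1, and with the ratio turned over it would read 312% and 288%. Precision is limited by 1 array for each day.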

Other observations

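TAS RNAs, the non-coding substrates that RDR6 and DCL4 turn into trans-acting small RNAs, were looked up after their names had been seen on the array. TAS3 had 6.31% on day 8, against 16.1% on day 1, a deposited log2 change of -1.35. TAS2, averaged over its probes, had 8.84% on day 8 and 11.5% on day 1, with 10.2% and 7.66% on day 8 and 12.2% and 10.8% on day 1 for its 2 probes. TAS1B had 18.9% on day 8, against 10.2% on day 1, a change of 0.89, in the opposite direction to TAS3. The 3 transcripts lay at percentiles from 0.768 to 2.65 of all genes on day 1, and TAS1B was at percentile 32.0 on day 8. Amplification began at an oligo(dT) primer, so these values describe polyadenylated RNA.

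Other proteins related to the core were also looked up after the values had been seen. The RNase III-like gene RTL2 had 23.8% on day 8 and 41.1% on day 1, RTL1 (AT1G80650) had 20.4% on day 8 and 30.2% on day 1, and RTL3 had 17.7% on day 8 and 21.4% on day 1. The Tudor-SN genes, which encode RNA-binding nuclease-like proteins, had 39.5% on day 8 and 41.1% on day 1 for Tudor2 and 33.6% on day 8 and 39.6% on day 1 for Tudor1. On day 8 both lay above the RTL genes, while on day 1 RTL2 was level with Tudor2. The deposited day 8 values of all 5 were below their day 1 values, as for 81.4% of all genes.

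A further 3 probes are described as a Dicer homolog by a transcript cluster and name no locus. None had signal on both days, so they give no second measurement of a Dicer-like gene.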
